A study of Mus musculus with 13 samples.

Results

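The 10 genes described here are known for their expression in retinal ganglion cells: Sncg, Pou4f1, Isl1, Ebf1, Ebf3, Gap43, Elavl3, Elavl4, Rbpms and Stmn2. They were taken by gene name from the authors' deposited comparison table, which lists 35734 genes. All 10 had enough reads to be tested, among 15657 genes in all, and all 10 are protein-coding mouse genes. RNA was sequenced from cells of CD1 mouse retinas of postnatal day 0, labelled as retinal progenitor cells. The cells were dissociated, transfected by Amaxa nucleofection, cultured for 9 h and sorted for GFP. The 4 control libraries carried a GFP plasmid (400000 cells each), and the 4 Ikzf1 libraries carried Ikzf1-IRES-GFP, which makes Ikzf1 and GFP from 1 transcript (300000 cells each). The promoter of these plasmids is not given in the sources used here, and every cell in both groups had been transfected and sorted. The labels call the libraries of a group biological replicates. Another 5 samples, of CUT&RUN, were not used for these genes.

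Retinal ganglion cells are the projection neurons of the retina and send their axons to the brain through the optic nerve. In the mouse they are among the first retinal neurons to be born, from early progenitors, and the late progenitors of the newborn retina mainly give rise to rod photoreceptors, bipolar cells and Müller glia. Ikaros, the product of Ikzf1, is a zinc finger DNA-binding protein known from early retinal progenitors and from lymphocytes. The members belong to several steps of the neuronal programme. Pou4f1 (Brn3a), Isl1, Ebf1 and Ebf3 are transcription factors. Rbpms, Elavl3 and Elavl4 are RNA-binding proteins. Gap43 and Stmn2 act in the growing axon, and Sncg encodes gamma-synuclein, a small protein abundant in ganglion cell bodies and axons. Several of them also mark other neurons: Isl1 is made by cholinergic amacrine cells and bipolar cells, the Ebf factors by amacrine cells, and Elavl3, Elavl4, Gap43 and Stmn2 by many young neurons.

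The sequences before the start sites show where the transcription units of 4 of the members that rose begin, and what letters stand there. They are from RefSeq on GRCm38.p6, all on the minus strand, and end 1 base before the gene as the authors' table places it. The stretch of Sncg is chr14:34374790-34374919, that of Pou4f1 is chr14:104468000-104468249, that of Isl1 is chr13:116309690-116309938 and that of Elavl3 is chr9:22052024-22052273. Capitals mark CAGCTG, an E-box of the kind that proneural bHLH factors can bind.
Sncg: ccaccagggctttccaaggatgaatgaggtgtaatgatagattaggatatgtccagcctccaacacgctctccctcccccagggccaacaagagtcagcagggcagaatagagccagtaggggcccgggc
Pou4f1: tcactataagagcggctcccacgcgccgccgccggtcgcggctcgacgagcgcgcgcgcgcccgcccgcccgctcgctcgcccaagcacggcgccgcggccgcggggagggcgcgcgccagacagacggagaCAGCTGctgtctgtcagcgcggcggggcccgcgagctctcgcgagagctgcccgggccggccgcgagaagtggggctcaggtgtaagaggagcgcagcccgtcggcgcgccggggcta
Isl1: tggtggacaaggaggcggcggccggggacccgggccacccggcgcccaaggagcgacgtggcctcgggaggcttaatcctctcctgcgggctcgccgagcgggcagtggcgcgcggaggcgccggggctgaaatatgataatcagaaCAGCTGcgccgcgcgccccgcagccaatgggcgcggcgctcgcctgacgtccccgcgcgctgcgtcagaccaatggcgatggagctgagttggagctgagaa
Elavl3: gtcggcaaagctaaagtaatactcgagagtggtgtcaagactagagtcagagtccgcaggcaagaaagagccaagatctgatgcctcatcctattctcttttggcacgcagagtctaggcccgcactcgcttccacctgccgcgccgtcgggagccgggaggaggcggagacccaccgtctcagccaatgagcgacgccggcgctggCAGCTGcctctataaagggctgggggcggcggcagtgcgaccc
CAGCTG reads the same on both strands. Over the 250 bases before each RefSeq start it was present in 4 of the 7 members with an entry, beside 13% of 32851 promoters. These were Pou4f1, Isl1, Elavl3 and Elavl4, the last at start sites 2 and 3 of its 4. Of the stretches not shown, those of Ebf1, Ebf3 and Elavl4 start sites 1 and 4 had no CAGCTG. The E-box CATCTG was present on either strand in 2 of the 7, Sncg and Elavl4. Its share of all promoters was 14.4%, and the match in Sncg lies 9 bases before the RefSeq start, inside the gene as the authors' table places it and so outside the stretch shown. TGGGAA, the core known for Ikaros family proteins, was searched on both strands and found in 1 of the 7 (Ebf1, at the second of its start sites), beside 21.6% of all promoters. The shorter GGGAA, which TGGGAA contains, was in 2 of the 7 and in 56.2% of all promoters. It stood at each of the 2 start sites of Ebf1 and the 4 of Elavl4. A member counts here with a match at any of its start sites, while each of the 32851 promoters is 1 start site. The 7 members have 11 such entries, so counts of members and shares of promoters are not in like units. A match describes the letters only. Gap43, Rbpms and Stmn2 had no entry.

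The libraries held 21.4 to 27.1 M read pairs in the controls and 24.5 to 30.5 M in the Ikzf1 group. Ikzf1 itself took 1617 to 2190 reads per control library (0.00723 to 0.0091% of the total) and 15.9 to 17.2% of all reads in each Ikzf1 library, so the labels held. Levels between the groups are therefore given in CPM, the counts per 1 M reads after TMM scaling, which allows for the share taken by the plasmid transcript. A single read was worth 0.0346 to 0.0437 CPM. Of the 15657 genes, 9254 passed edgeR's quasi-likelihood test at an adjusted p under 0.05 (59.1%), 4585 higher (29.3%) and 4669 lower (29.8%), with a median log2 fold change of 0.00.

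Of the 10 members, 6 rose in the Ikzf1 libraries (Sncg, Pou4f1, Rbpms, Elavl3, Elavl4 and Isl1), 3 fell (Gap43, Stmn2 and Ebf3) and Ebf1 did not pass. That is 9 of 10 beside 59.1% of all genes. Their median log2 fold change was 0.42. The CPM ranges of the groups did not overlap for 8 members, beside 53.1% of all genes. The rise exceeded 1 on the log2 scale for 3 members, Sncg, Pou4f1 and Rbpms, as it did for 4.94% of all genes. No fall among the members reached that size, which 6.39% of all genes did. The summed level of the 10 was 427 to 434 CPM in the controls and 413 to 425 CPM in the Ikzf1 libraries, since the members that rose most were those at low levels and the most abundant fell. The sorted cells are a mixture, and in such bulk samples fewer cells of a type and less RNA per cell cannot be told apart.

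**Figure D1:**
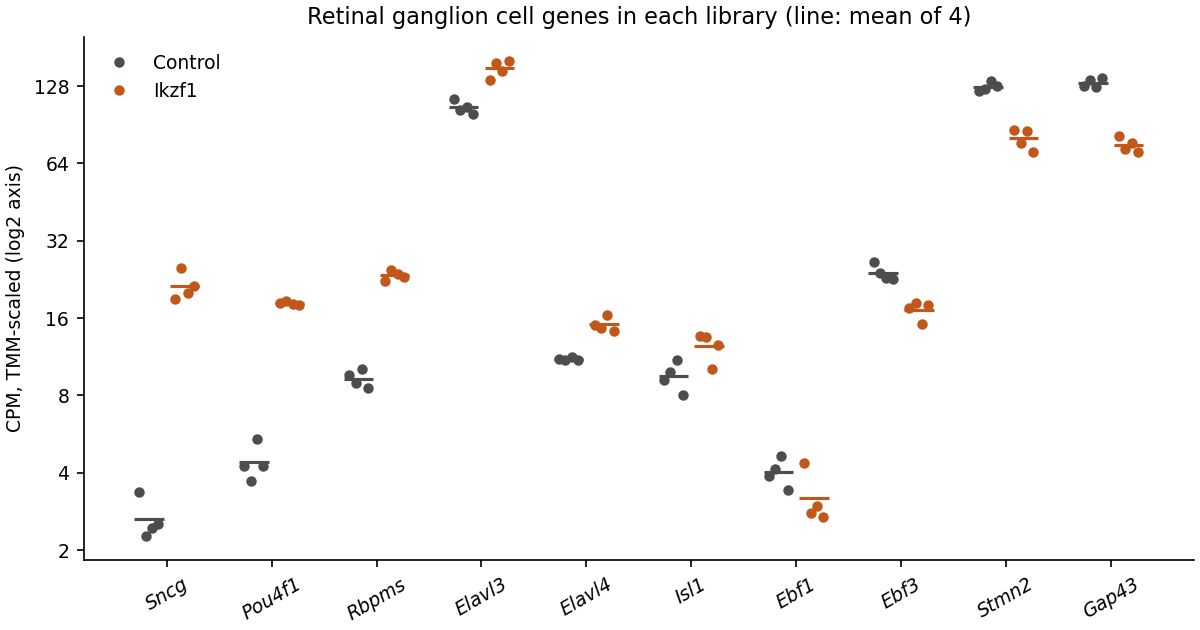
Level of each of the 10 genes in every library, in TMM-scaled CPM on a log2 axis, with controls and Ikzf1 libraries as separate points and the group mean as a line. Sncg, Pou4f1 and Rbpms show the widest gaps between the groups, Gap43, Stmn2 and Ebf3 are lower in the Ikzf1 libraries, and the points of Isl1 and Ebf1 overlap.

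Pou4f1 (ENSMUSG00000048349, GRCm38 chromosome 14, 104461676 to 104467999, minus strand) encodes a POU homeodomain factor that many ganglion cell types keep into adulthood. Its level was 4.23, 3.70, 5.43 and 4.25 CPM in control replicates 1 to 4 and 18.4, 18.6, 18.1 and 18.0 CPM in the Ikzf1 libraries, on 85 to 150 reads and 426 to 510 reads. Every Ikzf1 library stood above every control, and the Ikzf1 libraries differed from each other by less than the controls did. The mean went from 4.40 ± 0.733 to 18.3 ± 0.301 CPM (SD, n = 4 each), 4.12-fold (log2 fold change 2.04, SE 0.10, edgeR adjusted p = 1.09e-15).

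Isl1 (ENSMUSG00000042258, chromosome 13, 116298281 to 116309689, minus strand) is the LIM homeodomain factor that works beside the Pou4f factors in ganglion cell differentiation. It was measured at 9.17, 9.84, 11.0 and 8.02 CPM in the controls and at 13.6, 13.5, 10.1 and 12.6 CPM in the Ikzf1 libraries. The groups overlapped, because Ikzf1 replicate 3 lay below control replicate 3. Isl1 passed the test with a 1.31-fold higher mean (9.51 ± 1.25 against 12.5 ± 1.62 CPM, SD, n = 4 each, log2 fold change 0.39, SE 0.11, edgeR adjusted p = 2.91e-03).

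Ebf1 and Ebf3 encode helix-loop-helix factors of young ganglion and amacrine cells, and neither rose. Ebf3 (ENSMUSG00000010476, chromosome 7, 137193673 to 137314445, minus strand) stood at 26.5, 24.0, 23.0 and 22.7 CPM in the controls and at 17.5, 18.3, 15.2 and 18.0 CPM with Ikzf1. All 4 Ikzf1 libraries were below the lowest control, and the fall was 1.39-fold (log2 fold change -0.48, SE 0.08, edgeR adjusted p = 5.24e-06). Ebf1 (ENSMUSG00000057098, chromosome 11, 44617317 to 45008091, plus strand) was the least abundant member per length, in TPM, with 3.87, 4.13, 4.64 and 3.42 CPM in the controls and 4.35, 2.80, 2.98 and 2.68 CPM in the Ikzf1 libraries. Ikzf1 replicate 1 lay inside the control range and the other 3 below it. Ebf1 did not pass (log2 fold change -0.33, SE 0.18, edgeR adjusted p = 0.112). Without Ikzf1 replicate 1 it did, at -0.51 with an adjusted p of 0.0185, and over all alternatives its adjusted p ranged from 0.0185 to 0.284.

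Rbpms (ENSMUSG00000031586, chromosome 8, 33782643 to 33929863, minus strand) is an RNA-binding protein used as a marker of all ganglion cells in the adult retina. Its controls had 9.60, 8.97, 10.1 and 8.54 CPM and its Ikzf1 libraries 22.3, 24.7, 23.7 and 23.1 CPM. The groups lay well apart, with a 2.52-fold rise (9.31 ± 0.706 to 23.5 ± 1.02 CPM, SD, n = 4 each, log2 fold change 1.33, SE 0.08, edgeR adjusted p = 5.42e-14). With an offset for the mean length of the transcripts the rise was 0.95 on the log2 scale and still passed.

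The neuronal Elav genes encode RNA-binding proteins that stabilise messages of differentiating neurons, and both members of the group rose by less. Elavl3 (ENSMUSG00000003410, chromosome 9, 22015005 to 22052023, minus strand) had 114, 103, 106 and 100 CPM in the controls and 135, 158, 146 and 161 CPM in the Ikzf1 libraries. Each Ikzf1 library was above the highest control, and the rise was 1.42-fold (log2 fold change 0.51, SE 0.05, edgeR adjusted p = 7.80e-09). Elavl4 (ENSMUSG00000028546, chromosome 4, 110203722 to 110351909, minus strand) had 11.1, 11.0, 11.3 and 11.0 CPM in the controls, which barely differed, and 15.0, 14.7, 16.5 and 14.3 CPM with Ikzf1. It rose 1.36-fold (log2 fold change 0.45, SE 0.08, edgeR adjusted p = 4.47e-05). Elavl3 overlaps Gm49318 on the same strand, a gene of 5 normalised counts on average in the authors' deposited table, and reads of such overlaps cannot be assigned with certainty.

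Gap43 and Stmn2, the most abundant members by TPM, fell. Gap43 (ENSMUSG00000047261, chromosome 16, 42248442 to 42340651, minus strand) encodes a membrane protein of growth cones. It had 128, 135, 127 and 138 CPM in the controls and 81.7, 72.9, 77.1 and 71.0 CPM in the Ikzf1 libraries, with no overlap. Its mean fell 1.74-fold, from 132 ± 5.50 to 75.7 ± 4.77 CPM (SD, n = 4 each, log2 fold change -0.80, SE 0.05, edgeR adjusted p = 4.50e-14). Stmn2 (ENSMUSG00000027500, chromosome 3, 8509360 to 8561606, plus strand) encodes a stathmin that binds tubulin in growing axons. It had 122, 125, 134 and 128 CPM in the controls and 86.7, 77.1, 85.6 and 71.0 CPM with Ikzf1. The groups were apart here too, and the fall was 1.59-fold (log2 fold change -0.67, SE 0.05, edgeR adjusted p = 6.52e-11).

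Sncg (ENSMUSG00000023064, chromosome 14, 34370274 to 34374789, minus strand) rose by more than any other member. The controls held 3.36, 2.26, 2.43 and 2.52 CPM, on 52 to 85 reads, and the Ikzf1 libraries 19.0, 25.1, 20 and 21.3 CPM, on 450 to 604 reads. The lowest Ikzf1 library exceeded the highest control several times over. The rise was 8.05-fold, from 2.64 ± 0.489 to 21.3 ± 2.67 CPM (SD, n = 4 each, log2 fold change 3.01, SE 0.12, edgeR adjusted p = 4.75e-18), and ranked 61 from the top among the 15657 genes. Pou4f1 ranked 181 and Rbpms 473. In the authors' deposited table the same 6 members were higher and the same 3 lower, with log2 fold changes of 2.89 for Sncg, 1.87 for Pou4f1 and 0.93 for Rbpms.

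Most members belong to small gene families. In some, such as the Ebf, Isl and stathmin genes, relatives differed in direction, while the Rbpms genes and the neuronal Elav genes went the same way. The genes counted as paralogs here include some related to Gap43 in function only. Of 15 tested out of 16, 8 rose and 5 fell, beside 29.3 and 29.8% of all genes (median log2 fold change 0.30). Without Ikzf1 replicate 2, or with the replicate number as a block, 3 fell. Ebf2 rose by 1.32 on the log2 scale (SE 0.18, edgeR adjusted p = 4.27e-07, 1.83 to 4.59 CPM) and Ebf4 by 0.74 (SE 0.11, adjusted p = 1.27e-06, 7.21 to 12.1 CPM), while Ebf3 fell. Elavl2, the neuronal Elav gene of amacrine and ganglion cells, rose by 1.19 (SE 0.07, adjusted p = 4.11e-14, 19.5 to 44.5 CPM), more than Elavl3 and Elavl4. Of the other Pou4f genes, Pou4f3 rose by 1.01 (SE 0.33, edgeR adjusted p = 1.05e-02, 0.595 to 1.21 CPM). That rests on few reads, 9 to 22 per control library and 25 to 34 per Ikzf1 library. Isl2, the LIM homeodomain relative of Isl1, fell by 0.51 (8.18 to 5.74 CPM, edgeR adjusted p = 1.86e-03). Among the stathmins Stmn1 rose (0.30, 277 to 341 CPM) while Stmn3 fell with Stmn2 (-0.67, 31.1 to 19.6 CPM). Sncb, a relative of Sncg, had a log2 fold change of -0.33 and did not pass (edgeR adjusted p = 0.104). Rbpms2 rose with Rbpms (0.37, 9.33 to 12.1 CPM), and Marcksl1, a relative of Gap43 in function, rose by 0.51 (294 to 418 CPM).

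**Figure D2:**
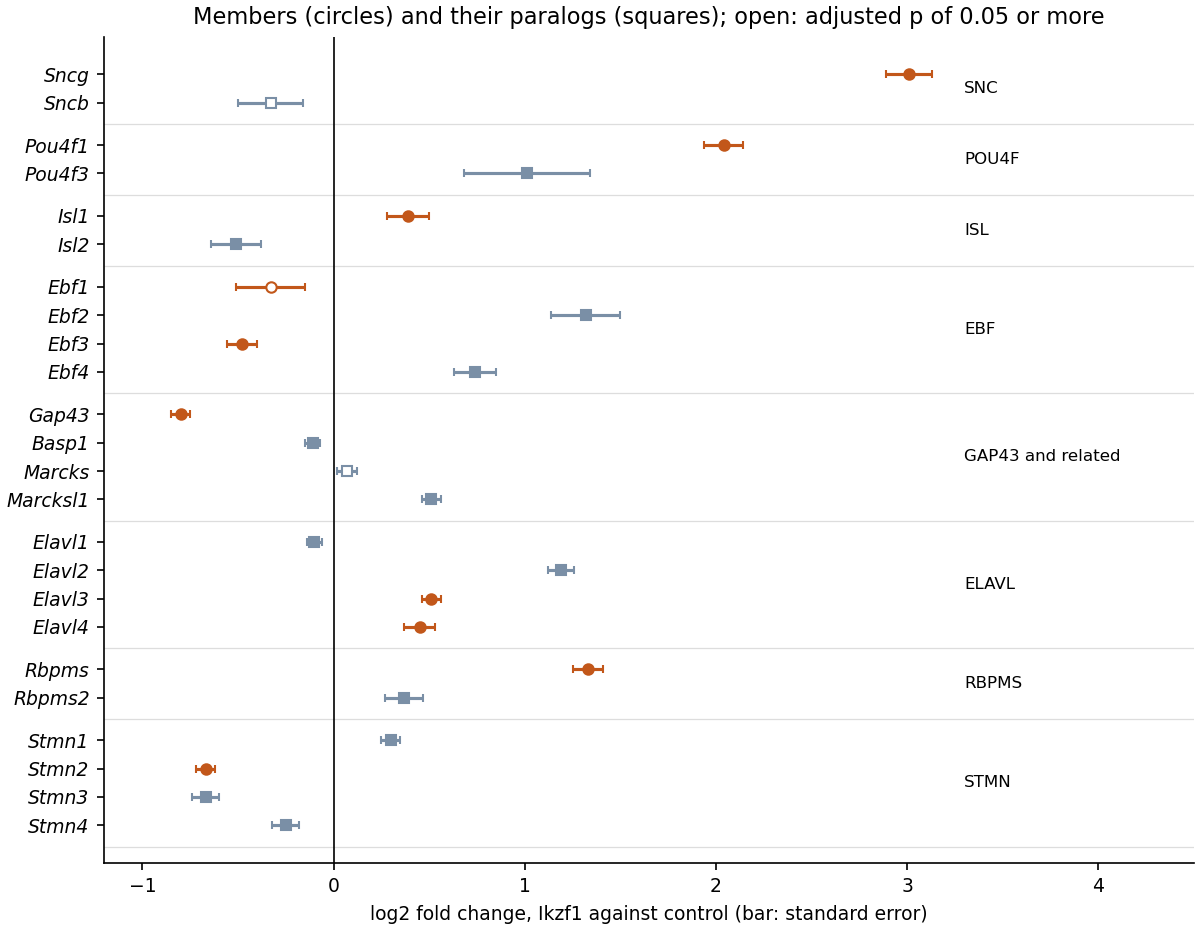
Log2 fold change (Ikzf1 against control, with its standard error) of each of the 10 genes beside the paralogs reported here, grouped by family. The group of Gap43 holds genes related to it in function. Members are circles, the other genes squares, and open symbols mark an adjusted p of 0.05 or more. Ebf2 and Ebf4 lie above 0 and Ebf3 below it, all 3 neuronal Elav genes lie above 0, and Stmn2 and Stmn3 lie below 0 with Stmn1 above it.

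Other transcription factors of ganglion cell development were counted next, from a list of 22 genes of which 20 were tested. Of these, 5 rose and 10 fell, beside 29.3 and 29.8% of all genes, and the median log2 fold change was -0.15. The highest were Ebf2, Pou4f3 and Ebf4. The lowest were Irx3, at -1.29 (SE 0.19, edgeR adjusted p = 1.97e-06, 4.10 to 1.67 CPM), Atoh7, at -1.15 (SE 0.07, adjusted p = 7.69e-14, 31.5 to 14.2 CPM), and Irx6, at -0.94. Atoh7 encodes the bHLH factor that progenitors need to make ganglion cells. The SoxC genes, which ganglion cell formation needs, went opposite ways, with Sox4 higher by 0.52 (509 to 728 CPM) and Sox11 lower by 0.39, which left it at 319 CPM. Pou4f2, the Pou4f gene that ganglion cells switch on earliest, had 3 to 7 reads per control library and 3 to 15 per Ikzf1 library and was not tested, and neither was Irx2 (4 to 13 and 3 to 12 reads).

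Of 27 other effector and axon genes, 24 were tested, 8 rose and 11 fell, beside 29.3 and 29.8% of all genes (median log2 fold change -0.10). Nefh, the heavy neurofilament chain, rose by 1.30 (SE 0.15, edgeR adjusted p = 2.89e-08, 3.92 to 9.68 CPM) and Ina, alpha-internexin, by 0.88 (39.5 to 72.5 CPM). The potassium channel gene Kcnd2 rose by 0.94 (SE 0.34, edgeR adjusted p = 0.019, 0.616 to 1.19 CPM). In the authors' deposited table Kcnd2 did not pass (log2 fold change 0.72, DESeq2 adjusted p = 0.0602). Nefl, the light chain, was the lowest at -2.64 (117 to 18.8 CPM). Cntn2, an axonal adhesion protein, stood at -1.49 (6.91 to 2.47 CPM, edgeR adjusted p = 1.27e-09) and Nefm, the middle chain, at -1.26 (226 to 94.0 CPM). The spans of Nefl and Nefm overlap, 1 gene on each strand. Since strand use in counting is not stated, the assignment of reads in that overlap is uncertain. Ina likewise overlaps Nt5c2 on the opposite strand. Thy1, a surface protein of ganglion cells, fell by 0.75 (4.33 to 2.56 CPM, edgeR adjusted p = 1.02e-03). Tubb3, the neuronal beta-tubulin, rose by 0.35 (132 to 169 CPM) and overlaps Galnt2l on the same strand.

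**Figure D3:**
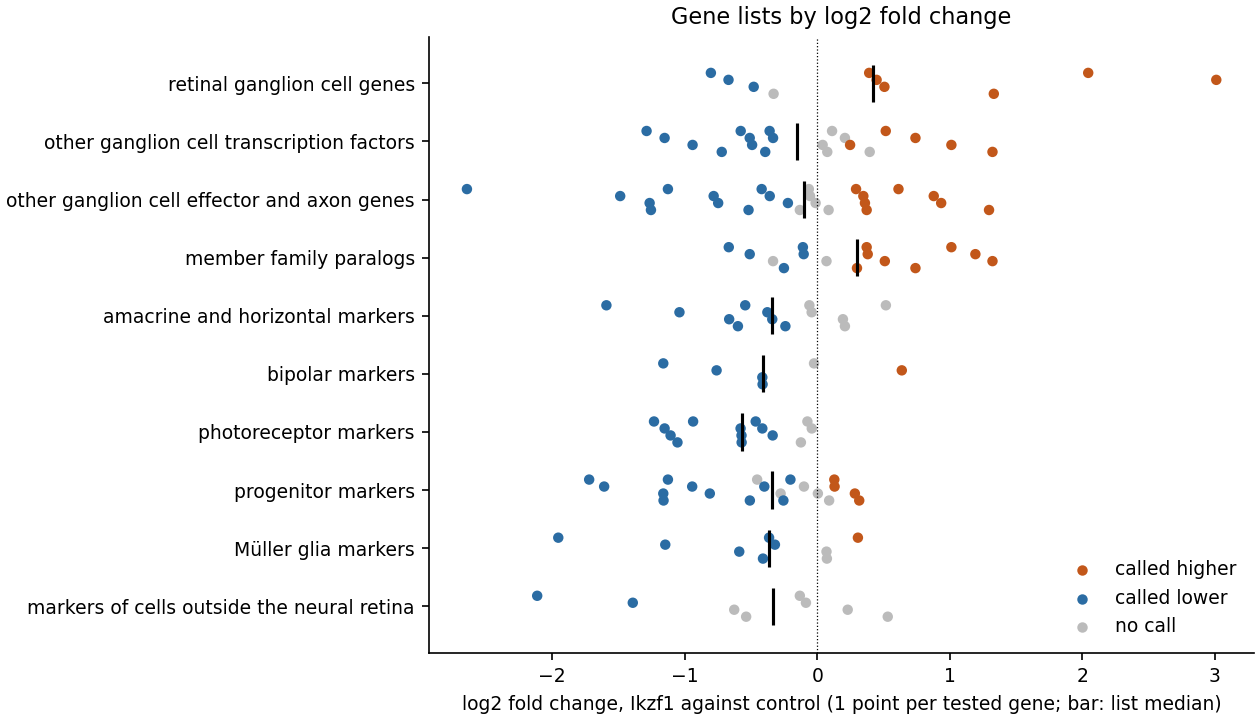
Log2 fold change (Ikzf1 against control) of every tested gene in the 10 members and in each of the 9 other lists, 1 row of points per list, coloured by call, with a bar at the list's median. The members have a median of 0.42 and the paralogs of 0.30, the lists of other ganglion cell genes lie near 0 and the lists of other cell types between -0.57 and -0.33.

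The labelled cell type was checked against markers. Progenitor genes were abundant in the controls (Pax6 at 368, Hmga2 at 245 and Ccnd1 at 235 TPM), as were Otx2 (346 TPM) and Crx (209 TPM) of young photoreceptors and Vim (2165 TPM), which progenitors share with Müller glia. Ganglion cell genes were present at very different levels. Of the other transcription factors and effector genes, 20 of 22 and 24 of 27 had enough reads to be tested. Among them, in the controls, were Tubb3 (147 TPM), Nefm (135 TPM), Atoh7 (40.7 TPM), Isl2 (10.6 TPM) and Thy1 (7.33 TPM). The genes with too few reads included some that mark ganglion cells in the retina. Besides Pou4f2, the glutamate transporter gene Slc17a6 had 0 to 15 reads in the controls and 5 to 14 in the Ikzf1 libraries, Nrn1 had 3 to 17 and 1 to 8, and Opn4, melanopsin, had a mean of 2.42 normalised counts in the authors' deposited table.

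Markers of other cells were counted in the same way, beside the 29.8% of all genes that fell. Photoreceptor markers summed to 857 to 990 CPM in the controls and 507 to 574 CPM with Ikzf1, and 11 of 14 fell. Bipolar markers summed to 474 to 532 CPM in the controls and 329 to 372 CPM with Ikzf1 (4 of 6 fell), and Müller glia markers to 2400 to 2740 and 1471 to 1620 CPM (6 of 9 fell). Vim alone, which progenitors share, held 1467 to 1720 and 662 to 774 CPM of the last sum, and the other 8 genes held 932 to 1019 and 796 to 846 CPM. Progenitor markers summed to 3992 to 4222 CPM in the controls and 2942 to 3012 CPM with Ikzf1, with 11 of 20 lower and 4 higher, or 2 higher without Ikzf1 replicate 3. Amacrine and horizontal markers summed to 415 to 483 and 381 to 408 CPM, and 8 of 13 fell. Isl1 and the Ebf genes are also known from amacrine cells, and Isl1 from bipolar cells. Markers of cells outside the neural retina were scarce, at 35.8 to 37.9 CPM against 14.6 to 19 CPM, and 2 of 8 fell. The number was 4 with DESeq2, and 4 without control replicate 4 or without Ikzf1 replicate 2, 3 or 4. The 2 were Col1a1 (19.6 to 4.53 CPM) and Mitf (6.13 to 2.33 CPM), which held much of the sum, and the other 6 had no call. Rpe65 of the pigment epithelium had a mean of 0 in the authors' deposited table. Whether these shifts play a part in the members' changes was not tested.

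Levels between genes were compared per length, in TPM and within a group only, since the plasmid transcript holds 170477 to 185944 TPM of each Ikzf1 library and lowers the rest. In the controls the order was Gap43 (199 ± 8.75 TPM), Stmn2 (138 ± 3.49), Elavl3 (43.9 ± 2.22), Rbpms (12.2 ± 1.92), Ebf3 (10.5 ± 0.551), Isl1 (8.91 ± 1.51), Sncg (7.26 ± 1.29), Elavl4 (6.14 ± 0.566), Pou4f1 (5.35 ± 1.23) and Ebf1 (1.70 ± 0.131), each as mean TPM ± SD over 4 libraries. Gap43, Stmn2 and Elavl3 were each apart from the next, as was Ebf1 at the bottom, and neighbours from Rbpms to Pou4f1 overlapped. In the Ikzf1 libraries Gap43 (98.9 ± 5.64 TPM), Stmn2 (73.6 ± 8.73) and Elavl3 (53.3 ± 4.60) still led. Sncg moved from rank 7 to rank 4 and overlapped Elavl3, Pou4f1 moved from rank 9 to rank 6 at 17.6 ± 1.45 TPM, and Ebf3 moved from rank 5 to rank 9.

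The transcripts behind each gene were examined through the share of the gene's TPM held by the transcript that led in the controls. Sncg had 1 transcript, so all of its rise lay in 1 product of 852 bases. For the other 9 members the leading share was compared with an unpaired exact two-sided permutation test. In it, 4 against 4 libraries cannot give a p below 0.0286. Elavl4 had the largest difference. Its transcript ENSMUST00000106603 held 54.2, 46.1, 47.8 and 38.8% in the controls and 14, 33.4, 21.6 and 29.3% in the Ikzf1 libraries. The ranges did not overlap and the share was 22.2 percentage points smaller (exact permutation p = 0.0286, adjusted p = 0.257 over the 9). Elavl4 was the 1 of the 9 under 0.05 before adjustment, and with this design a single gene whose groups are fully apart cannot get an adjusted p below 0.257. Shares of Ebf3, with a control SD of 16.8 points, and of Isl1, with 13.8, varied widely between libraries of 1 group. Gap43 was nearly all 1 transcript, with 99.7% ± 0.42 and 97.6% ± 1.85 (SD, n = 4 each).

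The leading Rbpms transcript had shares that overlapped between the groups (43.1% ± 15.9 against 46.1% ± 13.2, SD, n = 4 each), a difference of 2.98 points that turned to -11.1 points with shares of estimated counts. Another Rbpms transcript, ENSMUST00000191473 of 2547 bases, held 0, 8.46, 17.1 and 2.97% in the controls and 21.1, 39.4, 23.2 and 24.8% with Ikzf1. It was singled out after its values were seen, and gets no test. Every Ikzf1 library was above every control for it. Of Elavl4, 8 transcripts had reads, and of Rbpms 11, and lesser ones were at 0 in some libraries of a group and not in others.

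**Figure D4:**
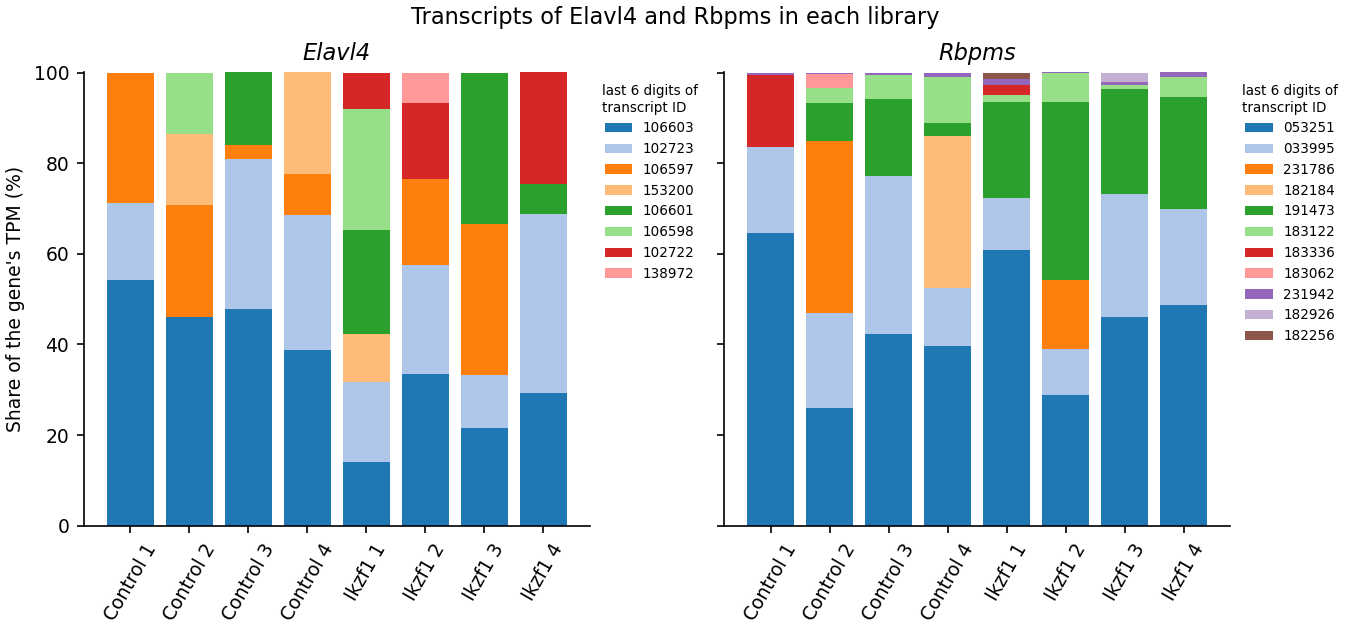
Share of the TPM of Elavl4 (left) and Rbpms (right) held by each of their transcripts, in percent, as 1 stacked bar per library, with colours for transcripts named by the last 6 digits of their IDs. The lowest segment of Elavl4, ENSMUST00000106603, is smaller in every Ikzf1 library (14 to 33.4%) than in any control (38.8 to 54.2%), and the segment of Rbpms transcript ENSMUST00000191473 is larger in every Ikzf1 library than in any control.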

How the data were processed

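RNA-seq of 4 control and 4 Ikzf1 libraries was analysed. Per the labels' protocols, rRNA was depleted and a stranded SMARTer kit was used. For each transcript the authors deposited an estimated count of read pairs, from Salmon per the submitters' processing notes, and TPM values in the same files, per the file headers. The authors' deposited table gave each gene's mean normalised count over all libraries (a signal), log2 fold changes and p-values, made with DESeq2 per the submitters' processing notes. Versions, annotation and strand use in counting are not given in the sources used here. Gene positions in that table overlap those of RefSeq on GRCm38 for all 10 members. No column of another series was present.

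The transcript files name no genes, so neighbouring transcripts were joined to the gene whose deposited mean normalised count their summed estimated counts reproduce, within a relative tolerance of 1e-09. Among the 16815 genes whose mean was 5 or more, 16811 were joined, holding 99.94 to 99.95% of reads. Slightly shifted means found a run for 16 genes. Fold changes from the joined counts and from the deposited table had an r of 0.998 across 11909 genes. For this r the joined counts were scaled by transcript length and by library factors fitted to the deposited means. It describes the join only, and not the edgeR fold changes reported here, which have no length term. For Rbpms, for example, these were 1.33 with edgeR and 0.93 in the deposited table. On simulated means the step joined 100% of 16778 genes (rounded), each with its true transcripts. The true genes there were the runs already joined in the data, so the simulation cannot show whether those runs are right.

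Summed estimated counts were rounded, filtered with filterByExpr, scaled by TMM and tested with edgeR 4.0.16 (robust quasi-likelihood test, two-sided, no covariate, R 4.3.3), with Benjamini-Hochberg adjustment over the 15657 genes tested and calls at 0.05. Standard errors were derived from F, as |log2 fold change| over its square root. On simulated counts for this comparison (15485 genes), edgeR recovered 80.6% of genes changed by 0.5, 89.4% by 1 and 100% by 2 on the log2 scale. Of its calls there, 3.76% were false. Only 67, 66 and 66 tested genes were changed in that simulation, by 0.5, 1 and 2 in either direction. The large share of the plasmid transcript in 1 group was not simulated. These rates therefore may not hold for the data, in which 59.1% of genes passed. The floor of 3 reads was 0.104 to 0.131 CPM per library. Such floors cover counting error only. DESeq2 1.42.0, other scalings and filters, a length offset, a replicate block and leaving out each library were the alternatives.

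The members and the 9 other gene lists were chosen with earlier results of these data known. From the lists of transcription factors, effector genes and paralogs, the 3 highest and the 3 lowest tested genes and those not tested are always named. From the other lists at most the 3 most abundant are named. Some genes of the lists are counted but not reported by name here. A few genes of other cell types stand in 2 lists, and several paralogs also stand in the ganglion cell lists. CUT&RUN peaks were not analysed here, because they are on another build than the gene positions.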

Additional observations from a re-analysis of the deposited data

How the results depend on the processing

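Of 436 values recomputed under other settings, 420 kept their direction and side of the threshold or stayed within 1.5 times, 13 moved further, 2 reversed and 1 passed the threshold. Each member kept its direction in all of them. Leaving out a library gave log2 fold changes of 2.93 to 3.14 for Sncg, 1.97 to 2.16 for Pou4f1, 0.32 to 0.48 for Isl1 and -0.84 to -0.77 for Gap43. Ebf1 went to -0.51 (adjusted p = 0.0185) without Ikzf1 replicate 1, so 3 to 4 members were lower. Over all genes, 9254 calls became 8657 to 9059 with a library left out, 7882 with the length offset and 9182 with DESeq2.

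At the level of genes the numbers 1 to 4 showed no pairing: same-numbered libraries had correlations of their deviations from -0.0511 to 0.00513. Of the 4 controls, 0 correlated best with their own number. Pairing of transcript shares was not tested, and some shares went with the number. Rbpms transcript ENSMUST00000231786 held 38% in control replicate 2 and 15.3% in Ikzf1 replicate 2, and 0 in all others. By contrast, ENSMUST00000182184 held 33.5% in control replicate 4 and 0 in all others. With the replicate block 8927 genes passed, the members stayed at 6 higher and 3 lower, 3 paralogs in place of 5 were lower, and 1 amacrine or horizontal marker was higher.

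That marker count, 0 with edgeR (1 at an unadjusted p under 0.05), was also 1 with DESeq2, and 0 to 1 with a library left out. With a library left out, higher paralogs were 7 to 8 and higher genes among the other transcription factors 4 to 5. Lower paralogs were 3 to 5, higher progenitor markers 2 to 4 and lower markers outside the neural retina 2 to 4 with a library left out. The last were 4 with DESeq2 and 4 with no filter. With shares of estimated counts in place of TPM, the difference in the leading transcript's share turned from 0.249 to -0.193 points for Elavl3 and from 2.98 to -11.1 for Rbpms. The cause was not tested. The shorter motif GGGAA was in 2 members in place of 1. Sncg had 52 to 85 reads per control library and Ebf1 64 to 128 per library.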
